A study of Mus musculus with 3 samples.

Results

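The genes described here belong to the Wnt signalling pathway: its secreted ligands, its receptors, its secreted antagonists and the proteins that carry the signal inside the cell. They were taken from the annotation of the array by their gene symbols (the Wnt, Fzd, Lrp5 and Lrp6, Sfrp, Frzb, Dkk, Dvl, Apc, Axin, Gsk3, Csnk1, Ctnnb1, Ctnnbip1, Lef1 and Tcf7 families), and the rule itself uses no measured value. This gave 61 of the 12422 probe sets analysed, from 47 of 8251 genes. Wif1, Porcn, the Nkd genes and Tcf7 itself also fall under these names and were not analysed here. The arrays carried RNA of the neural retina of mouse pups aged 7 days (P7), when photoreceptors, interneurons and Müller glia are still maturing. Its 3 samples, called pools 1, 2 and 3, formed a single group: each held retinas of 3 to 4 wild-type littermates of Rp1-/- mice, on a background mixed from 129/SvEv and C57BL/6, so no genotype, treatment or age was compared. Pool numbers are names only, and Rp1 was not analysed here.

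In the canonical branch of the pathway a Wnt ligand binds a frizzled receptor together with the co-receptor Lrp5 or Lrp6, and dishevelled proteins then stop a destruction complex of Apc, axin, Gsk3 and casein kinase 1 from marking beta-catenin for degradation. Beta-catenin can then enter the nucleus and act with Lef1 and the Tcf factors. Secreted frizzled-related proteins and some Dickkopf proteins interfere outside the cell. In the eye the pathway is known for roles at the margin of the retina, in the lens and, through Fzd4 and its ligand norrin, in the growth of retinal vessels.

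Intensities are on the authors' linear scale after the 3 arrays were brought to a common median. A gene was called above background when the probe set chosen for it passed, in all 3 pools, the 90th percentile of 55 genes that retina is not known to use, from organs such as liver and testis. This bar was at 289, 294 and 303 in pools 1, 2 and 3. Of the 55 genes, Cel, Lhb and Krt10 passed it in all pools, with single values from 310 to 898, so a call above background is not proof of expression. A gene below the bar may still have been expressed. Chosen probe sets were compared with the bar and with themselves across pools, since probe sets differ in how brightly they report the same amount of RNA. In these whole retinas, fewer cells of a type and less RNA per cell cannot be told apart. Of the measured retinal markers, 5 of 6 rod, 4 of 6 Müller glia and 4 of 4 ganglion cell genes were above background. So were 5 of 6 amacrine and horizontal cell genes. Progenitor and cell cycle genes had 3 of 6, with Mki67 and Top2a below the bar in every pool. The share of all genes was 45.1%. The Müller glia markers above background include Dkk3, itself a gene of the pathway, while Vim and Aqp4 were below the bar.

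Pool 1 stood apart from the other pools in its lens genes, whose summed intensity over 12 measured markers was 26967, 127520 and 136900 in pools 1, 2 and 3. Gnat1, the rod transducin gene and the only rod marker with excess spread, was also lower there, at 219, 698 and 680 (limma adjusted p = 0.0162). Pool 1 had the highest 3' to 5' ratio of the beta-actin control, at 1.81, 1.27 and 1.30. The same ratio of the Gapdh control differed less, at 0.874, 0.788 and 0.812. The share of all genes above the bar was close in the 3 pools, at 51.5%, 50.9% and 49.4%. P-values measure the spread between these pools, part of which may be technical.

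The secreted and receptor genes of the pathway were mostly below background, whereas most of the intracellular genes were above it. Of 31 genes for ligands, receptors and secreted antagonists, 3 were above background in all pools (9.68%), namely Fzd4, Lrp6 and Dkk3. Of 16 intracellular genes 11 were above it (68.8%). Together that was 14 of 47 genes, or 29.8%, against 45.1% of all 8251 genes. Another 4 genes passed the bar in only some pools, and 29 passed it in none. All 10 genes that lay at or below the floor of 42.2 in every pool, the 20th percentile of all values, under which intensities were not distinguished, were secreted or receptor genes, and 7.99% of all genes were at or below it in every pool. These shares are descriptions and were not tested. With the bar at the 75th percentile of the same 55 genes, 11 of the 31 and 14 of the 16 passed, with 60.7% of all genes.

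**Figure D1:**
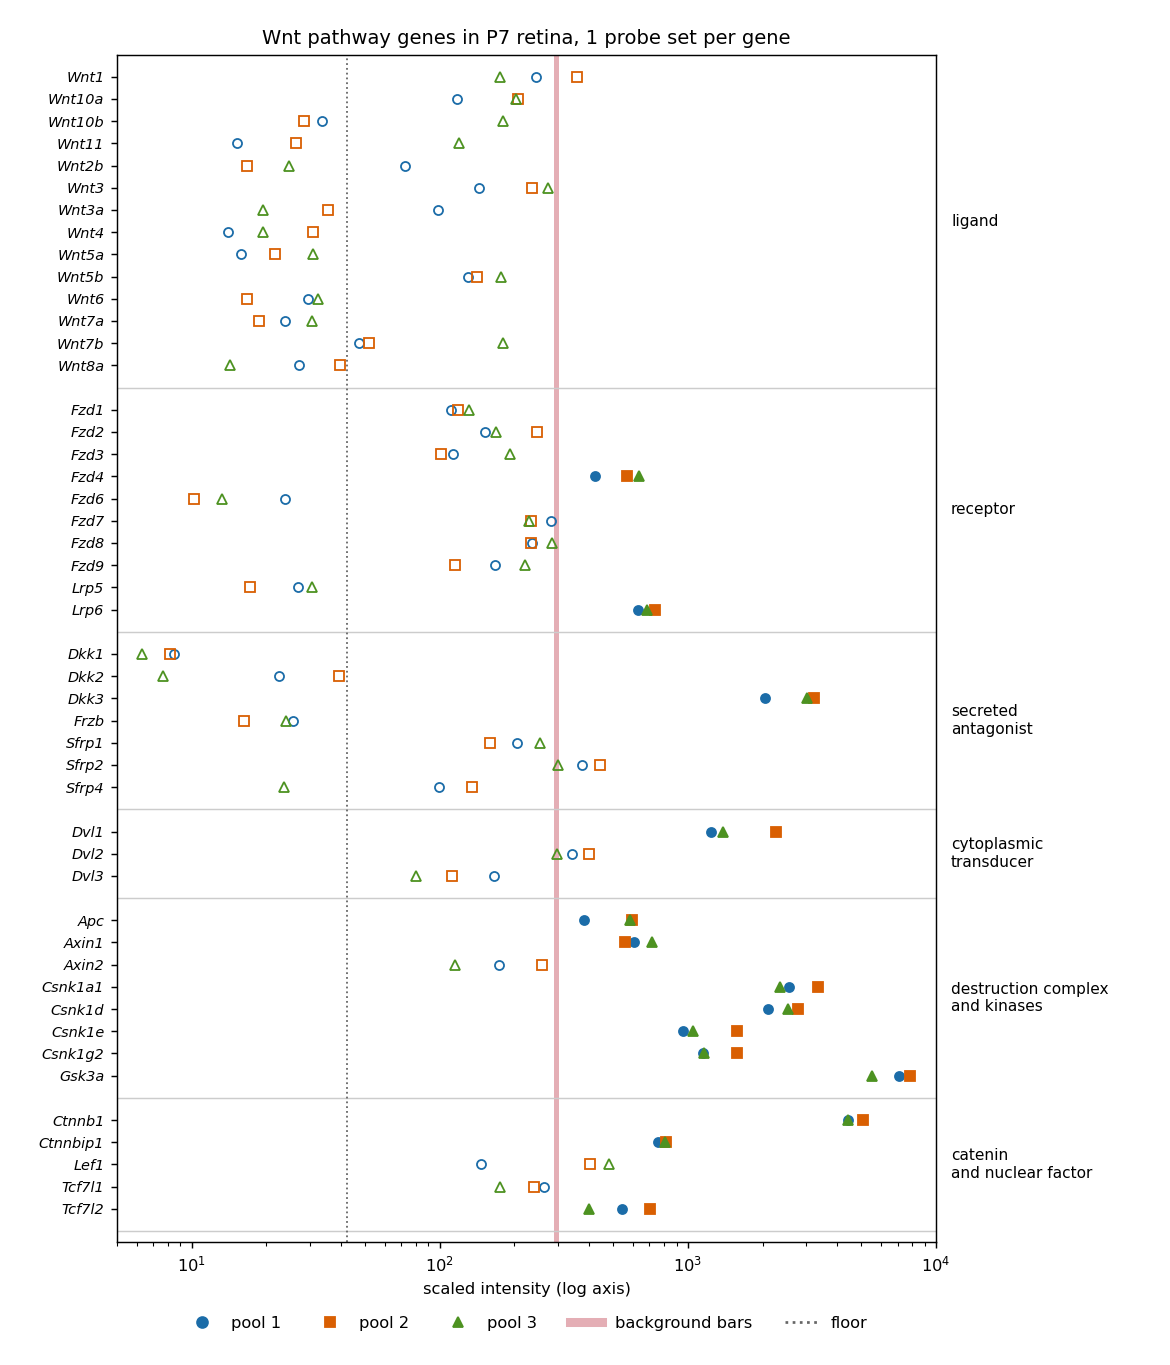
Scaled intensity (log axis) of the chosen probe set of each of the 47 genes in pools 1, 2 and 3, ordered by role. Filled symbols mark the 14 genes above background in all 3 pools, the red band spans the bars of 289 to 303, and the dotted line is the floor of 42.2. Ligands lie to the left of the band except for Wnt1 in pool 2, and most destruction complex genes lie to its right.

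None of the 14 Wnt ligand genes was above background in all pools. Wnt1, the founding member of the family and a signal of the embryonic midbrain, had intensities of 244, 358 and 174 in pools 1, 2 and 3. It passed the bar in pool 2 alone. Wnt3, which acts in limb and axis formation, was at 144, 236 and 274, below the bar in each pool. Wnt5b was at 129, 141 and 177 and Wnt10a at 118, 206 and 203, all below the bar as well. Wnt7b, a ligand known for its action on vessels, was at 47.3, 51.7 and 180. Wnt10b by its chosen probe set was at 33.4, 28.4 and 180, and Wnt11 at 15.2, 26.2 and 120, so both were under the bar in every pool. The other Wnt10b probe sets lay between 11.3 and 59.0. Wnt4, Wnt5a, Wnt6, Wnt7a and Wnt8a lay at or below the floor in every pool, with single values between 14.0 and 39.6, and Wnt2b (72.2, 16.7 and 24.6) and Wnt3a (98.0, 35.4 and 19.4) lay above it in pool 1 alone. Values this far under the bar give no order among pools.

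Among the receptors, Fzd4 and Lrp6 were above background. Fzd4, the frizzled that binds both Wnt ligands and norrin, was at 422, 566 and 637 in pools 1, 2 and 3. Its mean was 542 ± 110 (SD, n = 3 pools), and its lowest value was 1.46 times the bar of its pool. That probe set is of a type that can match several related transcripts, and the other probe sets of Fzd4 did not follow it, with values from 3.46 to 47.4. Lrp6, a co-receptor of the canonical branch, was at 631, 737 and 683, or 683 ± 53.2 (SD, n = 3 pools), while a second Lrp6 probe set read 47.4, 73.6 and 73.1. Lrp5, the co-receptor that works with Fzd4 in vessels, was at or below the floor in all pools (26.8, 17.2 and 30.4).

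The other frizzled genes stayed below the bar by their chosen probe sets. Fzd8 was nearest to it, at 236, 234 and 282, followed by Fzd7 at 281, 233 and 229. Fzd2 was at 152, 246 and 168, Fzd9 at 167, 115 and 220, and Fzd1 at 111, 118 and 131. Fzd6, a frizzled of planar polarity, was at or below the floor throughout (23.8, 10.2 and 13.2). Fzd3, which guides axons in the brain, was split: the chosen probe set read 113, 101 and 191, whereas a second one read 636, 552 and 745, above the bar in all pools.

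Of the 7 genes grouped as secreted antagonists by their symbols, Dkk3 alone was above background in all pools. Dkk3, a divergent Dickkopf protein also used as a marker of Müller glia, was at 2045, 3234 and 3030 in pools 1, 2 and 3, or 2770 ± 636 (SD, n = 3 pools). Its value was lowest in pool 1, at 7.08 times the bar. Sfrp2, a frizzled-related protein of retinal progenitors, was at 374, 444 and 300. It passed the bar in pools 1 and 2 and missed it in pool 3 at 0.991 times the bar, which is too close to call. Sfrp1 was at 204, 160 and 254, below the bar in each pool, and Sfrp4 at 98.9, 135 and 23.5. Dkk1, Dkk2 and Frzb, the first of them an inhibitor of Lrp6, lay at or below the floor in every pool, between 6.33 and 39.2.

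RefSeq promoter windows were matched for 30 of the 47 genes, and the 250 bases before the start were read (build GRCm38.p6, first listed window of each gene). The genes not matched were Apc, Axin1, Csnk1a1, Csnk1d, Dkk3, Fzd2, Fzd3, Fzd6, Fzd8, Lrp5, Lrp6, Sfrp1, Sfrp4, Wnt10a, Wnt5a, Wnt7b and Wnt8a. The 8 matched genes above background had a median of 25.5 CpG pairs (9 to 41), and the 22 others had a median of 22.5 (6 to 44), against 10 over 17492 protein-coding genes. Gsk3a, Dkk1 and Dkk2 lay under the protein-coding median, with 9, 6 and 7. The 10 ligand genes with a window had a median of 34.5. As an example of each kind, the windows of Fzd4 (chr7:89404116-89404365, plus strand, 25 CpG pairs) and of Wnt7a (chr6:91411354-91411603, minus strand, 34 CpG pairs), a ligand at the floor, are shown 5′ to 3′ with CpG in capitals.
Fzd4: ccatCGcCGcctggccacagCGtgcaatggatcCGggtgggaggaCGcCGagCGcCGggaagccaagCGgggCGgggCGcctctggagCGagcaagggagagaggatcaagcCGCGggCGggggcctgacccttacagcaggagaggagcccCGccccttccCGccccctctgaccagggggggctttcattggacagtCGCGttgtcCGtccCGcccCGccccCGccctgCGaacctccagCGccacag
Wnt7a: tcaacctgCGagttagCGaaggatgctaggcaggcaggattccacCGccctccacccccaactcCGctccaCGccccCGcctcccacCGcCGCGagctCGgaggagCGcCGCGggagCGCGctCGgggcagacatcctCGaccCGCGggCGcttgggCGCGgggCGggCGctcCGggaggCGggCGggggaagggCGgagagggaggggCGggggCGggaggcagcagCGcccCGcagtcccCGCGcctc

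The core words of the TCF/LEF binding site, CTTTGAT and CTTTGTT, were searched on both strands. Here every listed window of a gene was read, not the first alone. They were found for 5 of 30 genes (16.7%), namely Fzd7, Wnt5b, Wnt11, Dkk1 and Tcf7l2, and for 8.24% of protein-coding genes. For Wnt5b and Tcf7l2 the word lay in a later listed window and not in the first. Counted by window, 5 of 43 held a word, against 8.06% of all windows. Of these 5, Tcf7l2 was above background. Dkk1, known as a target of the pathway that feeds back on it, is shown (chr19:30549497-30549746, minus strand) with the word in capitals, 91 bases from the start.
Dkk1: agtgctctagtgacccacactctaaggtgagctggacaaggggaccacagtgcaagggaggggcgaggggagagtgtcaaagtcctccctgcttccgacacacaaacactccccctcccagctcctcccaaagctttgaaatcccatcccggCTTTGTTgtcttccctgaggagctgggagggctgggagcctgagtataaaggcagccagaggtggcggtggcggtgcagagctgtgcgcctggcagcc

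Dishevelled genes, which relay the signal from frizzled, differed in their calls. Dvl1 was at 1236, 2269 and 1387 in pools 1, 2 and 3, above background throughout and highest in pool 2. Its highest value was 1.84 times its lowest, the widest range among the 14 genes above background. Dvl2 was at 342, 398 and 298, above the bar in pools 1 and 2 and at 0.983 times it in pool 3. A second Dvl2 probe set was below the bar, at 50.1, 209 and 78.3. Dvl3, the remaining dishevelled, was below the bar in all pools (166, 112 and 80.4).

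The destruction complex genes, grouped here with all measured Csnk1 genes, were the part of the pathway with the most genes above background, 7 of 8. The share of all genes was 45.1%. Gsk3a, which phosphorylates beta-catenin, was at 7114, 7854 and 5502 in pools 1, 2 and 3, or 6823 ± 1203 (SD, n = 3 pools). Csnk1a1, the priming kinase for that step, was at 2561, 3357 and 2351, and its second probe set read 2405, 2908 and 2687. Csnk1d, of the same kinase family, averaged 2471 ± 350 (SD, n = 3 pools). Csnk1e was at 955, 1581 and 1052, and Csnk1g2 at 1152, 1575 and 1156, both highest in pool 2. Each was at least 3.31 times the bar in every pool. Csnk1d was also read by a probe set at 1775, 3478 and 2478 and by one below the bar, at 212, 87.2 and 185.

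The scaffolds of the complex lay closer to it. Axin1 was at 606, 560 and 718, and Apc at 382, 594 and 582, where pool 1 was the low one at 1.32 times the bar. Axin2 is both a scaffold and a widely used target gene of the pathway. It was below the bar in all pools, at 174, 258 and 115.

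Beta-catenin itself, Ctnnb1, was steady across the pools at 4408, 5098 and 4431, or 4645 ± 392 (SD, n = 3 pools). Ctnnbip1, which keeps beta-catenin from binding Tcf factors, was at 756, 814 and 809. Its highest value was 1.08 times its lowest, the narrowest range among the genes above background. Tcf7l2, a nuclear partner of beta-catenin, was at 544, 704 and 400, from a probe set of a type that can match gene families, and another probe set of it read 97.7, 88.7 and 128. Tcf7l1, which mostly represses, was below the bar in all pools, at 264, 239 and 175 by the chosen probe set and at 124, 252 and 61.4 by the other.

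Lef1 had the least even values of the nuclear factors. Its chosen probe set read 146, 403 and 479 in pools 1, 2 and 3, so that pool 1 was below the bar and the others above it. Its second probe set went the other way, with 195, 20.8 and 36.8, all below the bar. Lens genes and Gnat1 were lower in pool 1 too. Of the lens genes, 6 of 12 were above background in all pools, near the 45.1% of all genes, and none lay at the floor in all pools. All 8 lens genes bright enough to be tested had excess spread, against 1.34% of all probe sets tested. Alpha-A crystallin (Cryaa) was at 7413, 38200 and 39990. The part of the lens genes and Gnat1 in the Lef1 values was not tested. Without pool 1, Lef1 was above background.

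**Figure D2:**
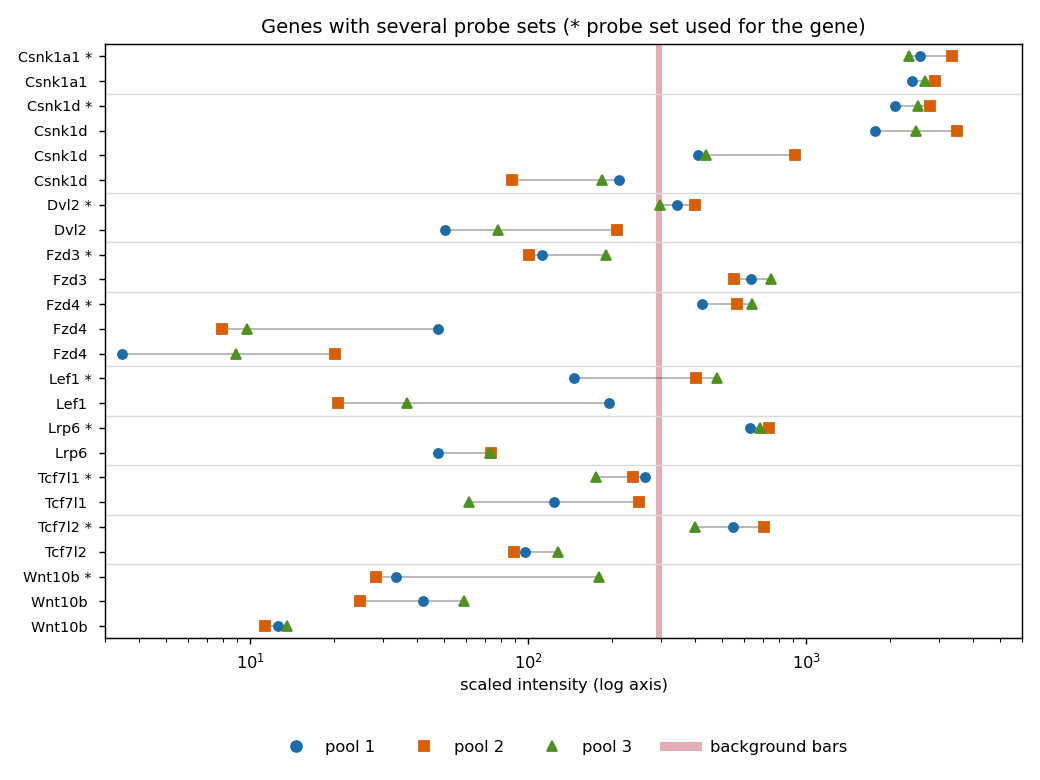
Scaled intensity (log axis) of all 24 probe sets of the 10 genes with more than 1, in pools 1, 2 and 3. A star marks the probe set used for the gene, and grey lines join its lowest and highest pool. For 5 genes the probe sets lie on both sides of the red band, which spans the bars of 289 to 303.

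Genes with several probe sets showed how far a call can depend on the probe set. Of the 47 genes 10 had more than 1, and 5 of these (Csnk1d, Fzd3, Fzd4, Lrp6 and Tcf7l2) had probe sets both above background in all pools and not. For Csnk1a1 both probe sets were above background. For Dvl2, Lef1, Tcf7l1 and Wnt10b no probe set was above it in all pools. Averaging all probe sets of a gene on the log2 scale brought Fzd4, Lrp6 and Tcf7l2 below the bar and Sfrp2 above it, which gave 12 genes above background.

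The spread of each member between pools was compared by limma with the spread usual at its intensity, over the 6211 probe sets bright enough to be tested. Of these, 25 were members, from 22 genes. None had excess spread after Benjamini-Hochberg adjustment, against 83 of 6211 probe sets (1.34%) overall. On simulated data the test found 3.4% of 2-fold and 60.8% of 4-fold changes in 1 pool. The lack of calls therefore does not show that the members were even between pools. At an unadjusted p below 0.05 there were 2 of 25, with 6.76% of all tested, and 3 of 25 had a range above 2-fold (Lef1, Wnt1 and a Csnk1d probe set other than the chosen one), with 8.63% of all tested. Dvl1, with its high value in pool 2, had a limma adjusted p of 0.825.

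Lef1 came nearest to a call. Its SD on the log2 scale was 0.93, where 0.37 was usual for its brightness (limma adjusted p = 0.108). Under the alternatives that tested it the adjusted p ran from 0.043, with 1 prior variance for all levels, to 0.983 without pool 1. It was 0.867 without pool 2 and 0.37 without pool 3, 0.854 unscaled and 0.898 with dim probe sets kept. A probe set of Csnk1d made under relaxed selection rules followed, at 409, 914 and 438 (limma adjusted p = 0.436), highest in pool 2. The chosen probe set of Csnk1d was highest there too, at 2094, 2785 and 2535.

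**Figure D3:**
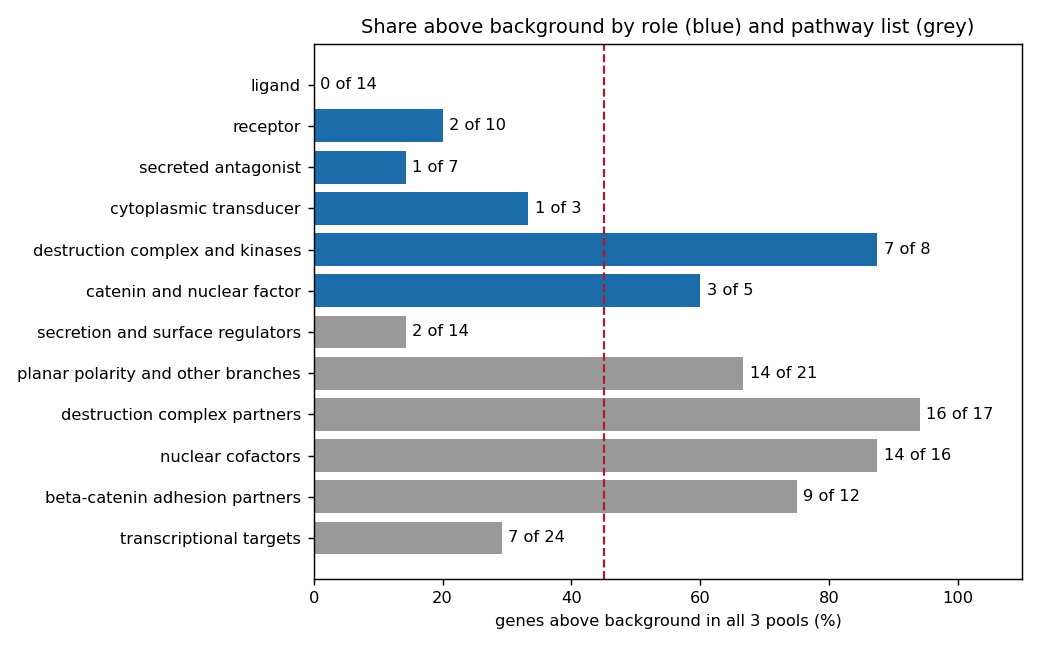
Percent of genes above background in all 3 pools for each role of the pathway genes (blue) and for lists of other genes tied to the pathway (grey), with counts beside the bars. The red dashed line is the 45.1% of all genes. Ligands (0 of 14) and the list of secretion and surface regulators (2 of 14) lie below the line, and destruction complex partners (16 of 17) above it.

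Lists of other genes tied to the pathway differed in their share above background. Of 14 measured genes for secretion and surface regulation, 2 were above background, beside 45.1% of all genes: Gpc1, a glypican that binds Wnt ligands, at 798 ± 203, and Ryk, a Wnt receptor with an inactive kinase domain, at 499 ± 82.4 (SD, n = 3 pools). The destruction complex partners had 16 of 17, among them the ubiquitin ligase genes Btrc at 786 ± 106, Fbxw11 at 969 ± 47.1, Skp1 at 2568 ± 467 and Cul1 at 1549 ± 281. Nuclear cofactors had 14 of 16, with Pygo2 at 739 ± 81.0, Crebbp at 913 ± 97.7, Smarca4 at 3438 ± 146 and Ruvbl1 at 687 ± 20.9. Most of these proteins also serve other pathways.

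Partners of beta-catenin in cell adhesion were above background for 9 of 12 genes, beside 45.1% of all genes. These included Cdh1 at 514 ± 114, N-cadherin (Cdh2) at 2272 ± 95.3, and the alpha-catenins Ctnna1 at 638 ± 82.0 and Ctnna2 at 814 ± 49.6. The planar polarity, calcium and small GTPase list had 14 of 21, with Celsr2 at 400 ± 76.4, Rhoa at 864 ± 386, Rac1 at 6797 ± 1609 and Cdc42 at 1885 ± 294. Known transcriptional targets had 7 of 24 above background, or 29.2%. Among them were Ccnd1, a cyclin, at 1946 ± 288, Mycn at 1064 ± 72.0, Jun at 566 ± 74.2 and Vegfa at 670 ± 170. Axin2, Lef1 and Dkk1 belong to that list as well and were not above background in all pools. No gene of these lists that was bright enough to be tested had excess spread by its chosen probe set. The test reached only 4 of the 14 secretion and surface regulators and 11 of the 24 targets.

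Within the 14 pathway genes above background, pool 1 was the lowest in 10, against 37.8% of all genes above background. As deposited, without scaling between arrays, it was the lowest in 9 of 14 (31.7% of all), and after quantile normalisation in 8 of 14 (34.0%). The median deviation from a gene's own mean in pool 1 was -0.13 on the log2 scale for the 14 genes and -0.04 for all 3725 genes above background. Apc and Dkk3 deviated most there, each by -0.41, followed by Dvl1 at -0.35 and Fzd4 at -0.34, and Gsk3a and Tcf7l2 lay slightly above their mean. The part of the beta-actin ratio, the lens genes and Gnat1, which set the same pool apart, was not tested.

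The height of the pathway genes in pool 2 depended on the scaling. With median scaling 12 of 14 were highest in pool 2, as were 57.2% of all genes above background. As deposited this was 6 of 14 (35.3% of all), and after quantile normalisation 5 of 14 (34.6%). Median scaling had raised pool 2 by 0.12 and lowered pools 1 and 3 by 0.06 each on the log2 scale, and the median deviation of all genes above background in pool 2 was 0.13, beside 0.22 for the 14 pathway genes. Summed red cell markers were also highest in pool 2, at 3177, 6931 and 3035 in pools 1, 2 and 3. Of these markers 1 of 4 was above background, beside 45.1% of all genes. Most of that sum was Hba-a1, at 2914, 6705 and 2821, while Slc4a1 was lowest in pool 2. Connective tissue markers were highest there too, at 665, 1198 and 730, with 1 of 6. So were the sums for rods (40811, 50841 and 45376), Müller glia, amacrine and horizontal cells, and, by little, pigment epithelium. Not every marker followed its sum. Sag, Pdc, Apoe and Calb2 were highest in pool 2, but Nrl, Rlbp1, Gad1 and Tfap2a in pool 1 and Glul and Vim in pool 3. The Müller glia sum also holds Dkk3, which is among the 14 pathway genes. The sums of ganglion cells, progenitors and vessels were highest in pool 1, and those of lens and microglia in pool 3. The part of these markers in the pool 2 values was not tested. Over the 3 pools the highest value of a pathway gene was a median of 1.43 times its lowest, against 1.36 for all genes above background.

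**Figure D4:**
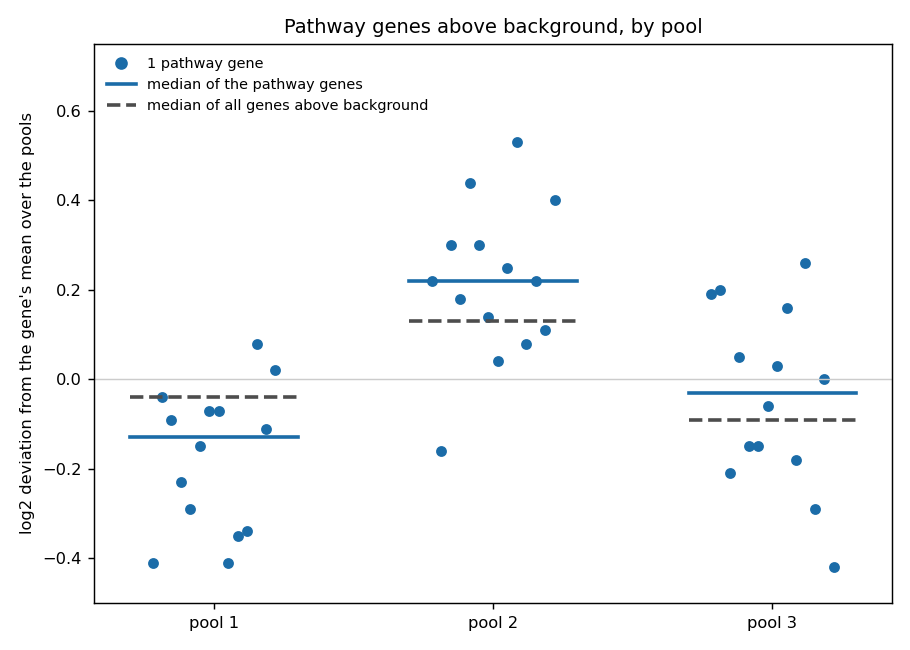
Log2 deviation of each of the 14 pathway genes above background from its own mean over the pools, with median scaling, by pool. Blue lines are the medians of the 14 genes (-0.13, 0.22 and -0.03) and grey dashed lines those of all 3725 genes above background (-0.04, 0.13 and -0.09).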

How the data were processed

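Total RNA from 3 pools of P7 retina had been hybridised to MG-U74Av2 arrays, the type read from the sample titles. The authors deposited linear intensity values, between 0.1 and 55245.8, for each probe set. With 2% cut from each end, pools 1, 2 and 3 had means of 500.2, 500.3 and 500.2, so each array had been scaled. The software is not given in the sources used here.

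After 66 control probe sets were left out, each array was scaled to the mean of the 3 medians (factors 0.962, 1.09 and 0.959), floored at the 20th percentile and put on the log2 scale. Symbols came from the platform annotation, updated by gene ID through RefSeq GRCm38.p6 names. Of 12422 probe sets 10833 had 1 gene, 396 several and 1193 none, and those with several were left unnamed. Each gene was read by 1 chosen probe set: names without a letter suffix were preferred, and the highest mean among equals. Spread was tested with limma 3.58.1 (squeezeVar, robust, with a trend on level) in R 4.3.3 on the brighter 50% of probe sets: the variance over the pools was set against the prior variance at the highest prior degrees of freedom (279), and upper-tail p-values were adjusted over all 6211 (Benjamini-Hochberg, threshold 0.05). The script was tested on simulated data. Of the 12488 deposited values, 11 or 12 were exactly equal between any 2 pools. The number of arrays limits the precision.

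All 47 genes were named, with values by pool where they were above background in any pool and at least their range otherwise. From each pathway list the first 4 genes in written order above background were named. The alternatives were other scalings, bars, floors, probe set rules, filters and prior variances, and each pool left out. Protein sequences were not used here. Members and lists were chosen with earlier results of these data known.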

Additional observations from a re-analysis of the deposited data

How the results depend on the processing

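No paired analysis was possible because the samples form a single group. The number of pathway genes above background, 14 with the bar at the 90th percentile, was 25 with the 75th, 11 of them among the 31 secreted and receptor genes. The 11 added were Dvl2, Fzd2, Fzd7, Fzd8, Fzd9, Lef1, Sfrp1, Sfrp2, Tcf7l1, Wnt1 and Wnt3. The same bar gave 5 of 14 secretion and surface regulators and 12 of 24 transcriptional targets. Of all genes, 45.1% passed the bar at the 90th percentile and 60.7% the bar at the 75th. Other alternatives gave 12 to 17 pathway genes, with 38.3% to 50.6% of all genes. Leaving out a pool in turn gave 14 to 16, with 46.5% to 47.7% of all genes. It was the same 14 genes without scaling and after quantile normalisation, and without Apc at the 95th percentile. Leaving out pool 1 added Lef1, and leaving out pool 3 added Dvl2 and Sfrp2. The number of members with excess spread was 0 except for 1, Lef1, with 1 prior variance for all levels, and leaving out a pool in turn gave 0 to 0. Over all probe sets the calls were 83, but 6 if arrays were left unscaled, 6 with quantile normalisation and 0 when dim probe sets were kept, and 30, 9 and 23 without pools 1, 2 and 3. The median deviation of the 14 genes in pools 1, 2 and 3, which was -0.13, 0.22 and -0.03, was -0.07, 0.10 and 0.03 unscaled and -0.10, 0.05 and 0.06 after quantile normalisation, so its sign in pool 3 turned. Averaging the probe sets of a gene gave 0.19 in pool 2. The cause was not tested. Signal over background limits what can be said: 36 of the 61 member probe sets were too dim for the test of spread.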

Other observations

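The norrin branch, by which Fzd4, Lrp5 and Tspan12 receive norrin in retinal vessels, was above background in all pools for 1 of its genes, Fzd4. The genes named here were chosen after their values were seen. Norrin (Ndp) was at 344, 432 and 269 in pools 1, 2 and 3, above the bar in pools 1 and 2. Tspan12, the co-activator of Fzd4, was at 108, 54.6 and 121 and Lrp5 at 26.8, 17.2 and 30.4, below the bar in every pool, while Fzd4 passed it by 1 of its 3 probe sets. Of 8 measured vessel markers, 1 was above background in all pools, beside 45.1% of all genes. That was Kdr, a receptor of endothelial cells, at 1303, 1177 and 1168. Cldn5 passed the bar in pools 1 and 2 (290, 296 and 242), Pecam1 in pool 3 (254, 258 and 346) and Flt1 in pool 1 (300.2, 104 and 130). Cdh5, Tek, Tie1 and Vwf were below it in every pool.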
